A study of Mus musculus with 17 samples.

Results

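The genes of the motile cilium were followed across the cell classes of the mouse hypothalamus and between fed and food-deprived animals. They were taken by name from the table that holds the annotated cells of all libraries, as every symbol that starts with Dnah, Dnaic, Dnal, Dynlrb, Tekt, Rsph, Spag or Bbs, or with Ift and a digit, plus Foxj1, Ccdc153 and Tmem212. The rule gave 63 of 23284 genes. Of the 63 genes, 61 had at least 1 unique molecular identifier (UMI, the tag that marks a captured transcript) in an annotated cell. Spag11a and Spag11b had none among 46904254 UMIs, which allows up to 0.064 UMIs in 1000000. Together the genes held 134833 UMIs, 36826 of them in ependymal cells.

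The data are Drop-seq counts, in which single cells are caught in droplets with barcoded beads, from the dissected hypothalamus of 8 mice of the B6D2F1 strain (a cross of a C57BL6 female with a DBA2 male). Normally fed mice number 5 (normal replicates 1 to 5), and 3 were kept without food for 24 hours (food-deprived replicates 1 to 3), and the labels name 5 batches of libraries. Both states occur in batch 1 (normal replicate 3, food-deprived replicate 1) and in batch 2 (normal replicate 4, food-deprived replicate 2). The first 2 normal mice form batch 0, and normal replicate 5 and food-deprived replicate 3 are alone in batches 3 and 4. Age and sex were not used here.

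Cilia are hair-like organelles built on a ring of paired microtubules, the axoneme. Motile cilia carry dynein arms that slide the microtubules past each other and radial spokes that coordinate the beat, and ependymal cells, which line the brain ventricles, use tufts of them to move cerebrospinal fluid. Most other brain cells, neurons and astrocytes included, bear a single primary cilium that lacks dynein arms but shares the intraflagellar transport (IFT) machinery and the BBSome, the cargo adaptor whose genes are mutated in Bardet-Biedl syndrome. Tanycytes are elongated glia of the third ventricle wall that border the ependymal cells.

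Levels are UMIs of a gene per 1000000 UMIs (CPM) of the summed cells of a class in 1 mouse. A captured transcript gives 1 UMI whatever its length, so levels of different genes compare transcript numbers and are not divided by length. The mouse is the replicate, and a mouse entered a class mean with at least 20 cells of it. The deposited cluster names were used as the classes, with clusters of 1 stem merged. They gave 412 Ependy, 605 Tany, 1140 Astro and 2297 neuronal cells among 14276 cells, and 6 mice (normal replicates 3 to 5 and all food-deprived mice) had at least 20 cells in each of these classes. Totals per mouse ran from 290861 to 12570644 UMIs. A further 161 annotated cells could not be given to 1 library because their barcode recurred within a batch and state, and they were not used, and 7 barcodes occurred in more than 1 mouse. In 9 of the 17 libraries Gapdh was below 50 CPM, and these were all in batches 1 and 2. The name Ependy was checked against ependymal genes outside the set, of which 7 of 8 (Rarres2, Fam183b, Mia and others) were measured. Their summed level was 27556 to 33475 CPM in Ependy, 4651 to 6379 in Tany, 2970 to 7288 in Astro and 690 to 1019 in neurons. Several of them, such as Fam183b, Tppp3, Enkur and Mlf1, are also in the list of other motile cilium genes used below, so the lists are not independent. Because the clusters were drawn from the expression of the same cells, differences between classes are given as descriptions with no test.

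The motile cilium genes made up 21000 ± 864 CPM of the ependymal transcripts (SD, n = 6), against 4499 ± 223 CPM in Tany (n = 6), 2030 ± 394 in Astro (n = 6) and 2580 ± 131 in neurons (n = 7). A pair of genes of little-known function led the ependymal list. Ccdc153, a coiled-coil gene, reached 4258, 4697 and 4372 CPM in the Ependy cells of food-deprived replicates 1 to 3 and 4265, 4554 and 4204 CPM in those of normal replicates 3 to 5. Tmem212, a predicted membrane protein, stood at 2990, 2933 and 2859 CPM in food-deprived and at 3939, 3009 and 3167 CPM in normal mice. Both were nearly confined to Ependy among the 4 main classes: Ccdc153 averaged 55.9 ± 43.5 CPM in Tany, 8.20 ± 4.89 in Astro and 3.51 ± 1.75 in neurons, and Tmem212 39.6 ± 27.6, 10.6 ± 9.37 and 1.85 ± 1.91. The lowest ependymal value of either gene lay above the highest value in any of the other 3 classes.

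Foxj1, the forkhead transcription factor that switches on the motile cilium programme, had 1416, 1260 and 1052 CPM in the Ependy cells of the food-deprived mice and 1184, 1325 and 1057 CPM in those of the normal mice. In Tany it had 268 ± 77.4 CPM (n = 6), in Astro 45.0 ± 27.4 and in neurons 8.28 ± 4.09 (n = 7). Dynlrb2, a roadblock-type light chain found with ciliary dyneins, was the third most abundant member at 1884, 2249 and 2139 CPM in food-deprived and 2353, 2297 and 2072 CPM in normal mice. Its partner Dynlrb1, a light chain of cytoplasmic dynein, went the other way, with 243 ± 38.2 CPM in Ependy, 383 ± 59.0 in Tany, 295 ± 36.5 in Astro and 730 ± 40.8 in neurons. Dynlrb1 was lower in Ependy than in neurons in 6 of 6 mice and the ranges did not meet (209 to 299 against 679 to 788 CPM).

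**Figure D1:**
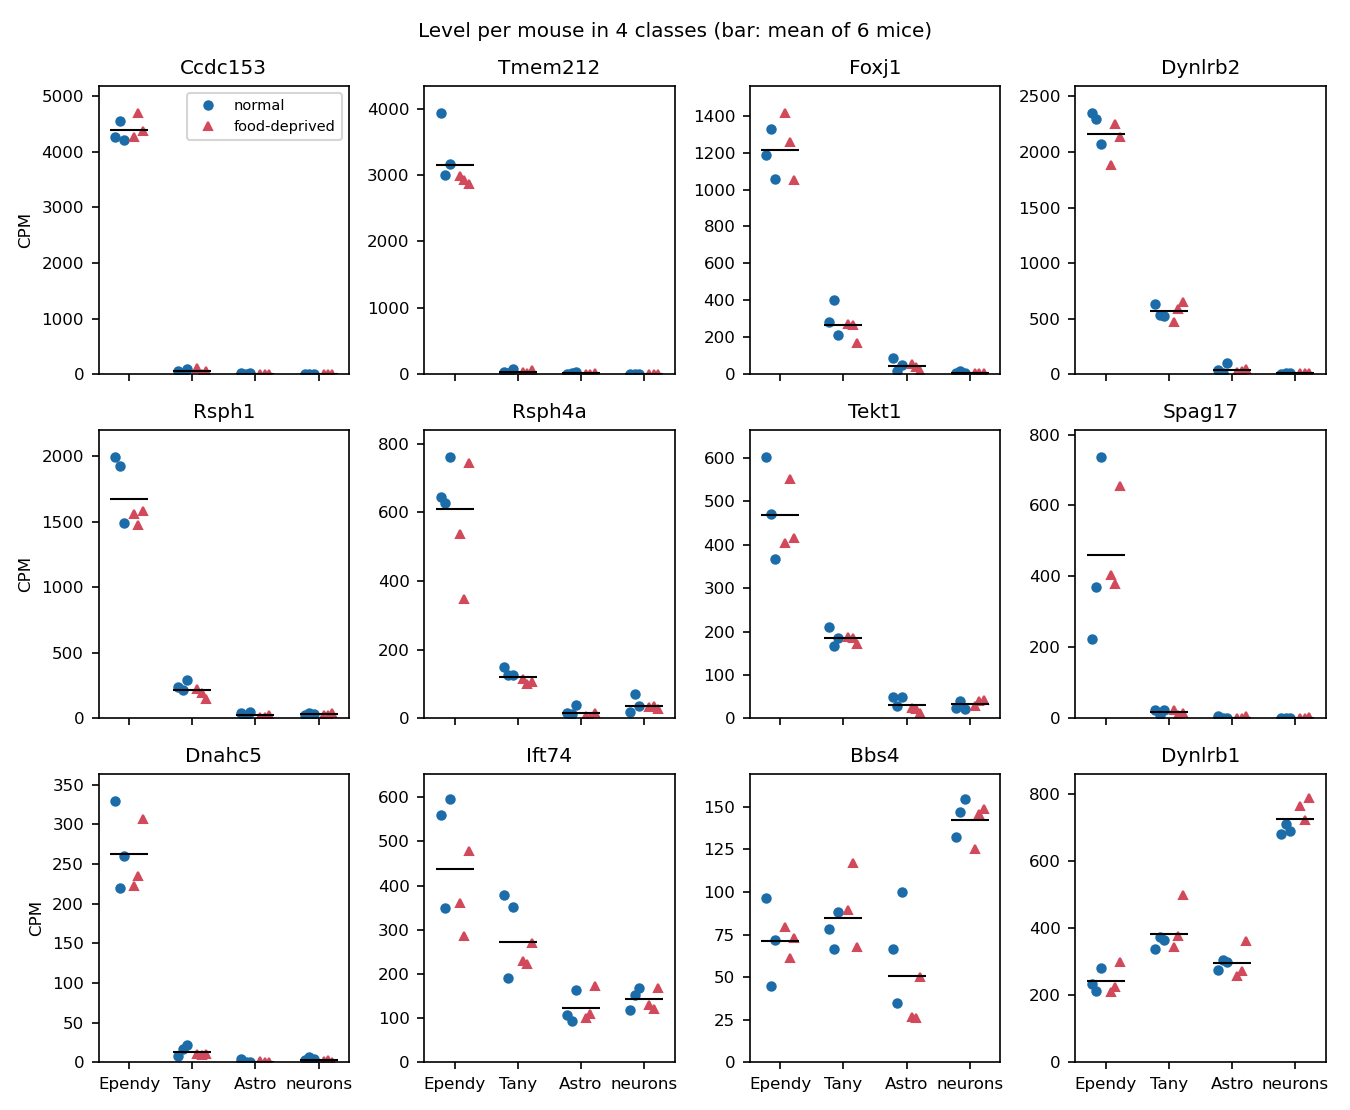
Levels of 12 of the genes in each of 6 mice (vertical axis, CPM of summed UMIs) in Ependy, Tany, Astro and all neurons (horizontal axis), with normal mice as circles, food-deprived mice as triangles and the mean as a bar. Ccdc153, Tmem212, Spag17 and Dnahc5 are close to 0 outside Ependy, Foxj1, Dynlrb2, Rsph1 and Tekt1 keep an intermediate level in Tany, and Dynlrb1 and Bbs4 are highest in neurons.

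A gene was counted as higher in Ependy when its mean was at least 4-fold that of the other class, the ranges of the 6 mice did not overlap and its mean was at least 10 CPM in either class. Against Tany, 18 of the 54 members past that level counted, where 5.82% of all 10477 genes did. Against Astro the count was 34 of 54, with 8.73% over all genes, and against neurons 29 of 53, with 14.7%. All 3 comparisons counted 16 of the 63 members in common. Over all genes the joint count is not given here, and it cannot exceed the 610 that counted against Tany. No member counted as 4-fold lower in Ependy, where 3.25%, 6.47% and 13.7% of all genes did. The median fold of the members over Tany, Astro and neurons was 2.91, 6.24 and 5.57, beside 0.904, 0.924 and 0.834 for all genes. A 2-fold limit raised the count against Tany to 35, and the share of all genes at that limit is not given here.

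Structural parts of the axoneme supplied most of these genes. Of 11 axonemal dynein heavy chains, the motors of the arms, 9 passed the level, and 6 were at least 4-fold higher in Ependy than in Tany, 8 than in Astro and 8 than in neurons. Dnahc5, an outer arm motor whose human homologue is mutated in primary ciliary dyskinesia, had 262 ± 46.4 CPM in Ependy and 13.0 ± 5.28 in Tany, a 20.2-fold difference, and 2.77 ± 2.31 in neurons. Dnahc6 (220 ± 30.9 CPM), Dnahc9 (145 ± 30.3), Dnahc2 (141 ± 50.2), Dnahc1 (121 ± 40.5) and Dnahc10 (106 ± 41.6) completed the 6 that counted against Tany. Dnahc11 did not, at 94.2 ± 20.5 CPM in Ependy and 37.4 ± 8.31 in Tany, although it was 151-fold higher in Ependy than in neurons. Dnahc1 was the heavy chain with most signal in neurons, 45.7 ± 20.4 CPM (n = 7), against 121 in Ependy and 7.02 ± 9.26 in Astro. Dnahc8 and Dnahc17 had 1 UMI each in the Ependy cells of the 6 mice (0.678 and 0.441 CPM), and 3.05 ± 3.50 and 0.709 ± 0.731 CPM in neurons. Dnahc7a and Dnahc7b, at 32.6 and 54.7 CPM, are near-identical copies whose reads may have been split between them.

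The intermediate chains Dnaic1 and Dnaic2, which anchor the outer arm motors, had 249 ± 57.3 and 214 ± 54.4 CPM in Ependy. Dnaic1 was the arm component with most signal in astrocytes, 47.5 ± 12.1 CPM, and stood at 2.46 ± 1.48 CPM in neurons. Among the light chains, Dnali1 (an inner arm light chain) had 482 ± 48.5 CPM in Ependy, 108 ± 19.5 in Tany and 0.434 ± 0.574 in neurons. Dnalc1 and Dnalc4, at 225 ± 39.0 and 139 ± 50.3 CPM, were spread more widely, with 80.0 ± 19.9 and 50.5 ± 17.3 CPM in neurons.

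Among the radial spoke genes, Rsph1 (a spoke head protein) had 1556, 1474 and 1581 CPM in the Ependy cells of food-deprived and 1996, 1927 and 1489 CPM in those of normal mice, and 219 ± 48.3 CPM in Tany. Rsph4a, another head protein, followed with 610 ± 153 CPM in Ependy, 121 ± 17.6 in Tany and 34.9 ± 16.5 in neurons. Rsph9 was the least restricted of the 3, with 473 ± 42.5 CPM in Ependy, 211 ± 27.2 in Tany, 92.6 ± 35.5 in Astro and 126 ± 16.6 in neurons. Rsph3a and Rsph3b, near-identical copies, had 24.0 ± 20.5 and 15.7 ± 16.2 CPM, and Rsph6a had no UMI in these Ependy cells and 0.310 ± 0.579 CPM in neurons. Of the tektins, filament proteins of the axonemal microtubules, Tekt1 was most abundant at 469 ± 91.6 CPM in Ependy and 184 ± 15.9 in Tany, ahead of Tekt4 (212 ± 36.5 in Ependy). Tekt3 was low but the most restricted, with 70 UMIs in Ependy, 3 in Tany and none in Astro or neurons, and Tekt5 had none in Ependy and 2.11 ± 2.16 CPM in neurons.

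The sperm-associated antigens share a name and not a function. Spag6, Spag16 and Spag17 belong to the central pair apparatus of the axoneme, and had 247, 74.3 and 461 CPM in Ependy with SDs of 27, 13.6 and 194. Their folds over Tany were 7.32, 3.62 and 27.3. Spag7 and Spag9, the latter a scaffold of JNK signalling and vesicle transport, were higher outside Ependy. Spag7 had 74.8 ± 10.7 CPM in Ependy and 181 ± 45.3 in neurons. Spag9 had 105 ± 32.9 CPM in Ependy, 146 in neurons (mean of 6 mice), 308 ± 119 in Astro and 346 ± 93.4 in oligodendrocyte precursors (OPC, n = 7). Spag5, a mitotic spindle protein, had 2 UMIs in Ependy, 49 in Tany and 50 in Astro, or 1.197, 23.5 and 20.9 CPM, and 1.61 ± 1.18 CPM in neurons. Spag4 had 1 UMI in Ependy (0.441 CPM) and 10.2 ± 7.15 CPM in neurons. Its highest class value was 80.4 CPM in POPC, a class with 20 cells in 1 mouse only.

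Relative to its mean, Spag17 had the widest spread between mice among the 20 members most abundant in Ependy. It had 405, 377 and 655 CPM in food-deprived replicates 1 to 3 and 224, 370 and 737 CPM in normal replicates 3 to 5, so the mice of batches 3 and 4 were the highest and the feeding groups overlapped. In the same 2 mice Spag8 was lowest, at 52.6 and 34.5 CPM against 96.9 to 167 CPM in the other 4. These mice were also the ones with no library of low Gapdh, and the part of that difference in the result was not tested.

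All 12 IFT genes, whose products carry cargo along cilia of both kinds, passed the level and were higher in Ependy than in Tany, Astro and neurons in each of the 6 mice. None counted as 4-fold higher than in Tany, 5 did against Astro and 5 against neurons. Their median fold was 2.46 over Tany, 3.67 over Astro and 3.03 over neurons, beside 0.904, 0.924 and 0.834 for all genes. The share of all genes that were higher in Ependy in each of the 6 mice is not given here. Ift74 and Ift81, which form the tubulin-binding module of the IFT-B complex, had 438 ± 125 and 326 ± 74.1 CPM in Ependy and 273 ± 75.7 and 208 ± 59.0 in Tany. Ift20, which also works at the Golgi, had 327 ± 49.8 CPM in Ependy and Ift27, a small GTPase, 239 ± 35.0. The farthest from Tany were Ift46 and Ift172, at 3.83-fold and 3.69-fold. Of 8 Bardet-Biedl genes, 6 passed the level and none was 4-fold higher than in Tany or neurons, while Bbs1 (7.21-fold) and Bbs7 (4.64-fold) counted against Astro. Bbs4 was lower in Ependy (71.1 ± 17.4 CPM) than in neurons (142 ± 10.2) in 6 of 6 mice, and Bbs2 had 51.3 ± 20.2 CPM in Ependy and 54.0 ± 19.2 in Tany. Bbs9 had its highest class mean in Micro, 48.4 ± 31.0 CPM (n = 5), against 35.7 ± 17.0 in Ependy, and these ranges overlapped.

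The regulatory stretches of the genes were read from RefSeq promoters (build GRCm38.p6) over the 250 bases before the start site. Promoters were found for 54 of the 63 members, 59 in all. Foxj1, Ift122, Ift80, Ift81, Rsph1, Rsph4a, Spag1, Spag11a and Spag11b had no entry. RFX transcription factors, the other known activators of cilium genes, bind the X-box, of which GTTGCC is a half-site. Searched on both strands, GTTGCC occurred in 15 of the 59 member promoters (25.4%) and in 10.4% of all 32851 promoters. It was in 11 of 26 promoters (42.3%) of members at least 4-fold higher in Ependy than in neurons and in 4 of 33 (12.1%) of the other members. Mean GC content was 53.8% in the former, 57.2% in the latter and 53.2% in all promoters. A full X-box, both half-sites with a spacer of 3 bases and any letter where the consensus varies, was in 6 of 59 (10.2%), beside 1.80% of all promoters. By the same split the fixed pattern was in 2 of 26 (7.69%) and 4 of 33 (12.1%), the opposite order to the half-site. These matches are few, and the split of full X-boxes with other spacings was not measured. The forkhead core GTAAACA was in 2 of 59 (3.39%), beside 3.17%. The windows of 6 members at least 4-fold higher in Ependy than in neurons are shown because each holds the half-site, with 1 match in capitals. Those of Tekt1 and Spag16 hold a second match, left in lower case. They lie upstream of the first exon and are written 5′ to 3′ on the strand of the gene, where GGCAAC is the same half-site read on the other strand.
Ccdc153 (chr9:44240498-44240557, plus strand, first motif base 152 before the start): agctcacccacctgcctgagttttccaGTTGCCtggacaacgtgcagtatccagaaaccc
Dynlrb2 (chr8:116504937-116504996, plus strand, 51 before): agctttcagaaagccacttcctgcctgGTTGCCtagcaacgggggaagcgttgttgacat
Tekt1 (chr11:72361883-72361924, minus strand, 15 before): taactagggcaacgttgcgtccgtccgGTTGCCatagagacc
Dnaic2 (chr11:114727366-114727418, plus strand, 26 before): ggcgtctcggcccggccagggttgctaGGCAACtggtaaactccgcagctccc
Spag6 (chr2:18698958-18699017, plus strand, 37 before): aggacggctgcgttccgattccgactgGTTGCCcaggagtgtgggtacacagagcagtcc
Spag16 (chr1:69826832-69826891, plus strand, 111 before): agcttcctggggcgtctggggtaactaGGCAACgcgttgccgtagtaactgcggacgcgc
A match is a run of letters and not a measured binding site.

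Tanycytes carried some of the genes at a large part of the ependymal level and others at a few percent of it. Tmem212 and Ccdc153 in Tany were 1.26% and 1.27% of their ependymal level, Spag17 3.67% and Dnahc5 4.96%. Rsph1 stood at 13.1%, Foxj1 at 22.0%, Dynlrb2 at 26.1%, Tekt1 at 39.3% and Ift74 at 62.4%. Across the 6 mice, Ccdc153 lay between 0.069% and 2.47%, Dynlrb2 between 23.2% and 30.3% and Tekt1 between 33.7% and 50.3%. Of the members with at least 20 CPM in Ependy, Spag7, Dynlrb1, Spag9, Bbs4 and Bbs2 were above 100%, and Bbs2 ran from 61.4% to 315% over the mice. Below that level, Spag5 and Spag4 (2.28 CPM in Tany, 0.441 in Ependy) were higher in Tany as well.

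**Figure D2:**
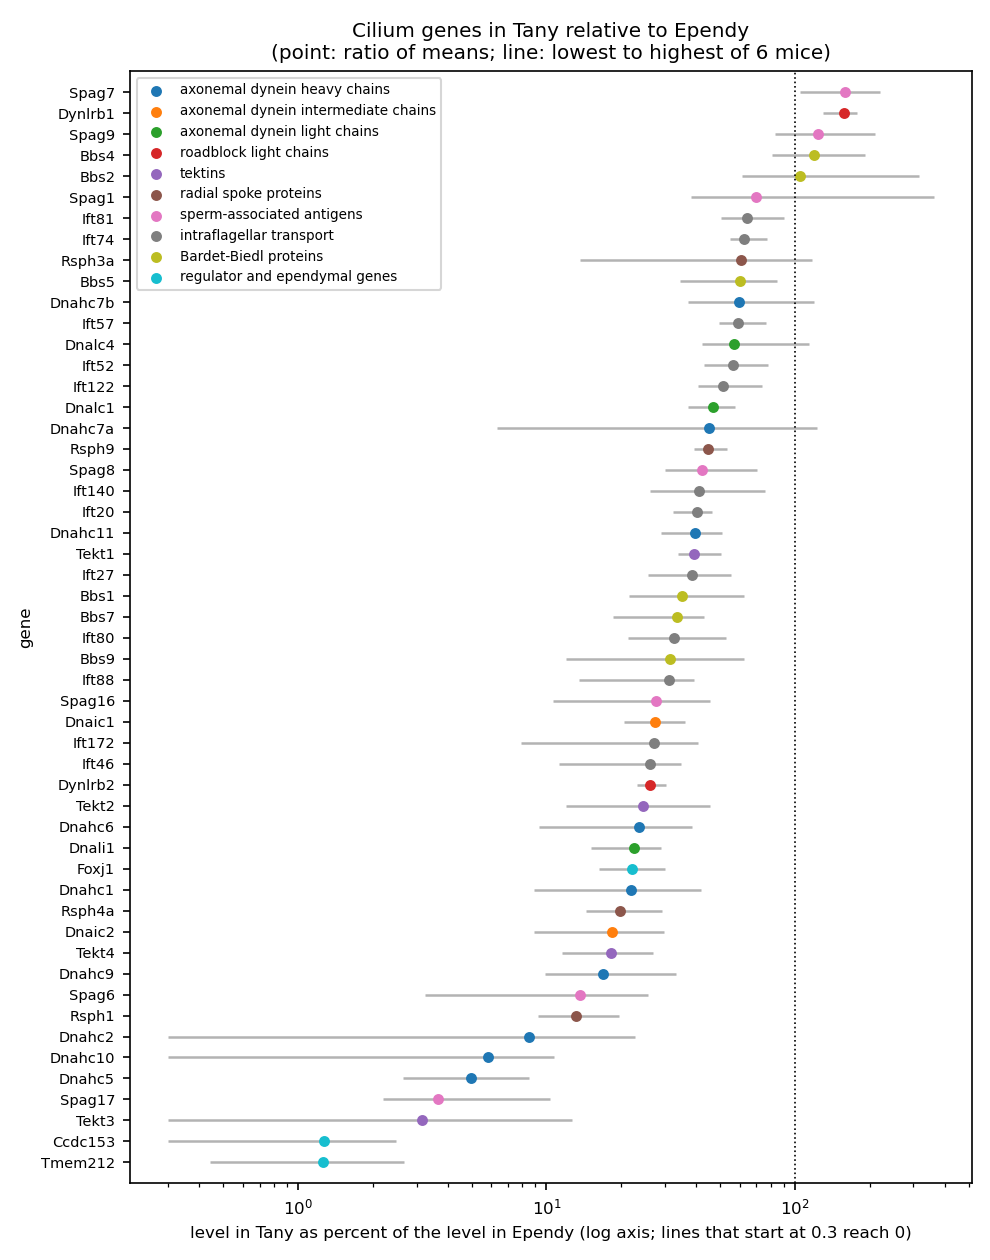
Level in Tany as a percent of the level in Ependy (horizontal log axis) for each gene (vertical axis, coloured by family), with the ratio of means as a point and the lowest and highest of 6 mice as a line. Ccdc153 and Tmem212 sit near 1%, 6 of the 9 dynein heavy chains at or below 23.5%, and the IFT genes between 26.1% and 63.9%.

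Cells of Tany that held no UMI of Ccdc153 or Tmem212 were looked at separately. They were 529 of 575 Tany cells of the 6 mice (92.0%). In them Dynlrb2 still had 498 ± 106 CPM, Foxj1 258 ± 112, Rsph1 177 ± 35.4 and Tekt1 173 ± 11.2 (n = 6 mice). The corresponding levels in all Tany cells were 565, 268, 219 and 184 CPM. In Astro cells without UMIs of the same 2 genes, 1103 of 1126, Dynlrb2 was at 23.0 ± 10.4 CPM and Foxj1 at 37.2 ± 29.2. The largest gap for Rsph1 was in normal replicate 5, with 155 CPM in the 97 Tany cells without these UMIs and 291 CPM in all 113.

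Single cells gave the same gradient at equal depth. After each cell with at least 1000 UMIs was thinned to 1000, the median number of members detected was 11 in Ependy (378 cells), 4 in Tany (550), 1 in Astro (843) and 2 in neurons (2150), where median depths before thinning were 2573, 2319, 1512 and 4292 UMIs. A Ccdc153 UMI was present in 97.1% of Ependy cells (exact 95% binomial interval 94.9 to 98.5%) and in 2.91% of Tany (1.67 to 4.68%), 1.19% of Astro and 0.512% of neuronal cells. Dynlrb2 was detected in 85.4% of Ependy (81.5 to 88.8%) and 37.5% of Tany cells (33.4 to 41.6%), and in 1.78% of Astro and 0.837% of neuronal cells. Foxj1 was detected in 65.1%, 18.5%, 2.97% and 0.605% of these classes. For Ccdc153 the interval in Tany overlapped that in Astro (0.570 to 2.17%) and lay above that in neurons (0.256 to 0.914%). Dynlrb1 ran from 16.9% of Ependy to 48.1% of neuronal cells. Without thinning these shares were 94.7% and 59.5% for Dynlrb2, and 89.8% and 37.7% for Foxj1, in Ependy and Tany. Intervals cover counting error only. The cells were pooled over mice that differ in their share of Ependy cells: 213 and 113 of the 605 Tany cells came from food-deprived replicate 3 and normal replicate 5, where Ependy made up 7.70% and 5.68% of cells. The part of free RNA in these shares was not tested.

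A class named SCO, 32 cells that all came from normal replicate 3, lay between Ependy and Tany in the summed level of these genes. Its marker Sspo, the main secreted product of the subcommissural organ, was at 5215 CPM there and at most at 18.7 CPM in any Ependy sample. The members summed to 9456 CPM, less than in Ependy. Rsph1 (1159 CPM), Foxj1 (929), Dynlrb2 (911) and Spag17 (497) were high, and Ccdc153 was at 230 CPM. With 1 mouse there is no replicate check.

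Outside the ventricular lining, Foxj1 was also detected in mature oligodendrocytes (MO), the only class with 8 mice. Its level there was lowest at 43.0, median 67.8 and highest at 227 CPM. The highest value came from normal replicate 2, where Ccdc153 and Tmem212 were at 88.2 and 113 CPM in MO, against at most 3.75 CPM in the other 7. In those 7 mice Foxj1 ran from 43.0 to 134 CPM.

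Among 15 neuronal clusters with at least 10 cells in 2 or more mice, the axonemal genes Tekt1 and Rsph1 were highest in GABA8, a cluster of GABA neurons. Tekt1 had 127, 201 and 167 CPM in the GABA8 cells of food-deprived replicates 1 to 3 and 188, 110, 122 and 77.8 CPM in those of normal replicates 2 to 5. The remaining neurons of the same mice lay between 7.85 and 30.1 CPM, lower in each of the 7 mice with no overlap. Rsph1 averaged 85.6 ± 26.6 CPM in GABA8 (n = 7) and was above the other neurons in 7 of 7 mice. Dynlrb2 was at 13.9 to 113 CPM in GABA8 and at 2.28 to 10.6 CPM in the other neurons, lower in 7 of 7 mice with no overlap. Both ends of that GABA8 range rested on 3 UMIs. Normal replicate 2, at its upper end, had 13 GABA8 cells and 5 UMIs of Tekt1 in them. Rsph9 did not stand apart in GABA8. Glu8, with 28 cells in 2 mice, had the highest Rsph4a (114 ± 6.39 CPM), Rsph9 (174 ± 44.7) and Dnahc1 (83.6 ± 6.10). The clusters were picked after their values were seen, and the values are given without a test.

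**Figure D3:**
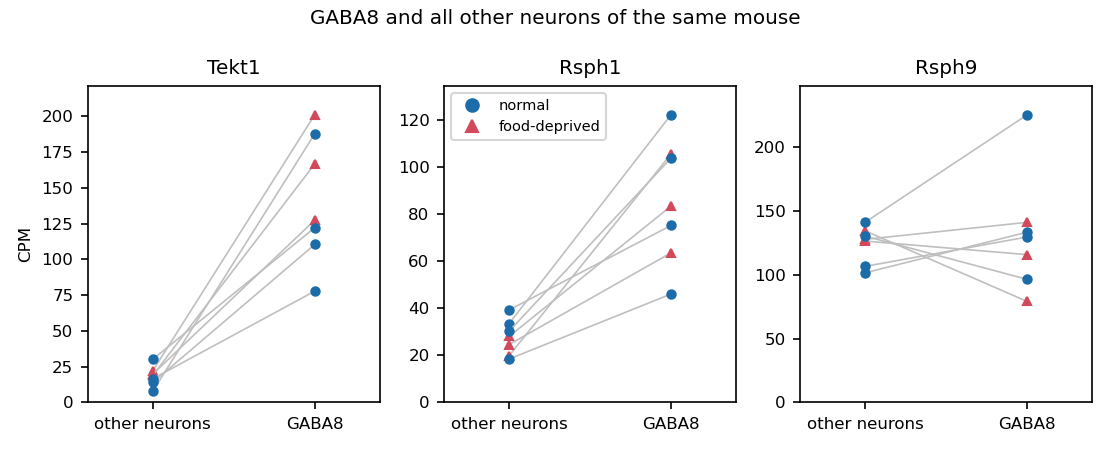
Levels of Tekt1, Rsph1 and Rsph9 (vertical axis, CPM) in GABA8 and in all other neurons of the same mouse (horizontal axis, joined by a line), for 4 normal (circles) and 3 food-deprived mice (triangles). Tekt1 and Rsph1 rise toward GABA8 along each of the 7 lines, and Rsph9 does not in all.

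Genes outside the set gave a similar picture for the axoneme. Of 49 other motile cilium genes, 43 were measured, and 16 of these counted as at least 4-fold higher in Ependy than in Tany, 42 than in Astro and 40 than in neurons. Over all genes 5.82%, 8.73% and 14.7% counted in these 3 comparisons. Fam183b had 1893 ± 291 CPM in Ependy and 506 ± 55.0 in Tany, and Ak7, an adenylate kinase of the axoneme, 1109 ± 180 and 135 ± 50.2. Of 12 regulators of multiciliation, 8 were measured, and 2, 4 and 6 of them counted against Tany, Astro and neurons. They included Myb with 147 ± 29.9 CPM in Ependy and 2.79 ± 3.23 in Tany and Trp73 with 38.0 ± 22.1 and 1.404 ± 2.39, whereas Rfx3 had 106 ± 25.8 and 61.7 ± 19.6. Of 24 IFT and BBSome genes under other symbols, 22 passed the level and 0 counted against Tany, 7 against Astro and 6 of 23 against neurons. When 3997 genes with at least 50 CPM in Ependy were ranked by the ratio of Ependy to the next of 10 classes, which leave out SCO and POPC with their 1 mouse each, Tmem212 and Ccdc153 were 8th and 9th, with ratios of 79.5 and 78.5, and Spag17 36th. In SCO, Spag17 was above its ependymal mean. The 10 non-members ranked highest were Als2cr12, Uox, Col6a5, Gtsf1l, Ccdc33, Col8a2, 2310007L24Rik, Tctex1d4, Gm17384 and Krt8.

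Feeding state was compared in each class with edgeR's quasi-likelihood test on UMIs summed per mouse, adjusted by Benjamini-Hochberg over all genes tested. No member passed 0.05 in any class, where 0% of all genes did in each. In Ependy (3 against 3 mice) 47 members were tested among 5336 genes, and 3 had an unadjusted p under 0.05, or 6.38%, beside 4.44% of all genes. DESeq2 gave 0 members after adjustment and 1 before. In Tany 1 of 35 members was under 0.05 before adjustment (3.07% of all genes), in Astro 1 of 17 (3.14%) and in neurons 0 of 38 (2.12%), and DESeq2 gave 0 in each, before adjustment as after. The mice are shared by these comparisons.

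The 3 ependymal genes did not share a direction or a role. On the TMM-scaled CPM of edgeR, the heavy chain Dnahc2 had 207, 227 and 158 CPM in food-deprived and 116, 80.4 and 150 CPM in normal mice. All food-deprived values lay above the normal ones, and the log2 ratio was 0.76 ± 0.28 (SE; edgeR adjusted p = 0.978). Ift140, of the retrograde IFT-A complex, had 83.5, 125 and 87.9 CPM against 49.2, 71.4 and 49.97 CPM, also without overlap, and a log2 ratio of 0.78 ± 0.32 (edgeR adjusted p = 0.978). Dnalc4 had 176, 96.3 and 74.7 CPM against 225, 179 and 178 CPM, lower in the food-deprived mice without overlap, and a log2 ratio of -0.71 ± 0.32 (edgeR adjusted p = 0.978). Food-deprived mice were above all normal mice for 2 of 47 members, beside 4.84% of all genes, and below for 4 of 47 (Dnalc1, Dnalc4, Spag16 and Tmem212), beside 5.55%. Spag1 and Ift74 were next by p, with log2 ratios of -1.08 ± 0.53 and -0.47 ± 0.27.

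Of the abundant members, Ccdc153 and Foxj1 had log2 ratios near 0 between feeding states. Dynlrb2 and Tmem212 lay below 0, with intervals that included it. The log2 ratio in Ependy was -0.00 (95% interval -0.42 to 0.41) for Ccdc153, 0.03 (-0.39 to 0.46) for Foxj1, -0.14 (-0.54 to 0.27) for Dynlrb2 and -0.24 (-0.67 to 0.19) for Tmem212. For 33 of the 47 members the interval lay within a 2-fold change in either direction, and the share of all genes is not given here. Ratios were below 0 for 33 of 47, beside 50.2% of all genes, and the median was -0.10, beside -0.00. The summed level of all members in Ependy was 20083, 20590 and 20521 CPM in food-deprived and 22561, 21239 and 21003 CPM in normal mice, groups that did not overlap. With cells thinned to 1000 UMIs the sums were 20183, 19786 and 21168 CPM against 20581, 20850 and 20552 CPM, and the groups overlapped. For the members other than Dynlrb1, Bbs, Ift and Spag, without thinning, the groups overlapped, at 16234 to 16872 against 16450.5 to 18383 CPM. By family, the dynein heavy chains, Dnahc2 among them, summed higher in food-deprived mice without overlap, 1193 to 1276 against 1012 to 1157 CPM. The radial spoke genes summed lower without overlap, 2412.5 to 2730 against 2740 to 3134 CPM, and the other families overlapped. Of all single genes, 4.84% lay apart upward and 5.55% downward, and no such share was taken over sums of gene sets. The 7 ependymal genes outside the set, which include other motile cilium genes, summed lower without overlap, 27556 to 29584 CPM in food-deprived and 29777 to 33475 CPM in normal mice. The summed level of 11 heat shock and dissociation genes in Ependy was 15870 to 17900 CPM in food-deprived and 17458 to 23341 CPM in normal mice, that of 10 tanycyte markers (Gpr50 at 0) 319 to 459 against 109 to 362 CPM, and that of 7 choroid plexus markers (Kl and Kcnj13 at 0) 96.9 to 201 against 93.5 to 351 CPM. Their part in the result was not tested.

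**Figure D4:**
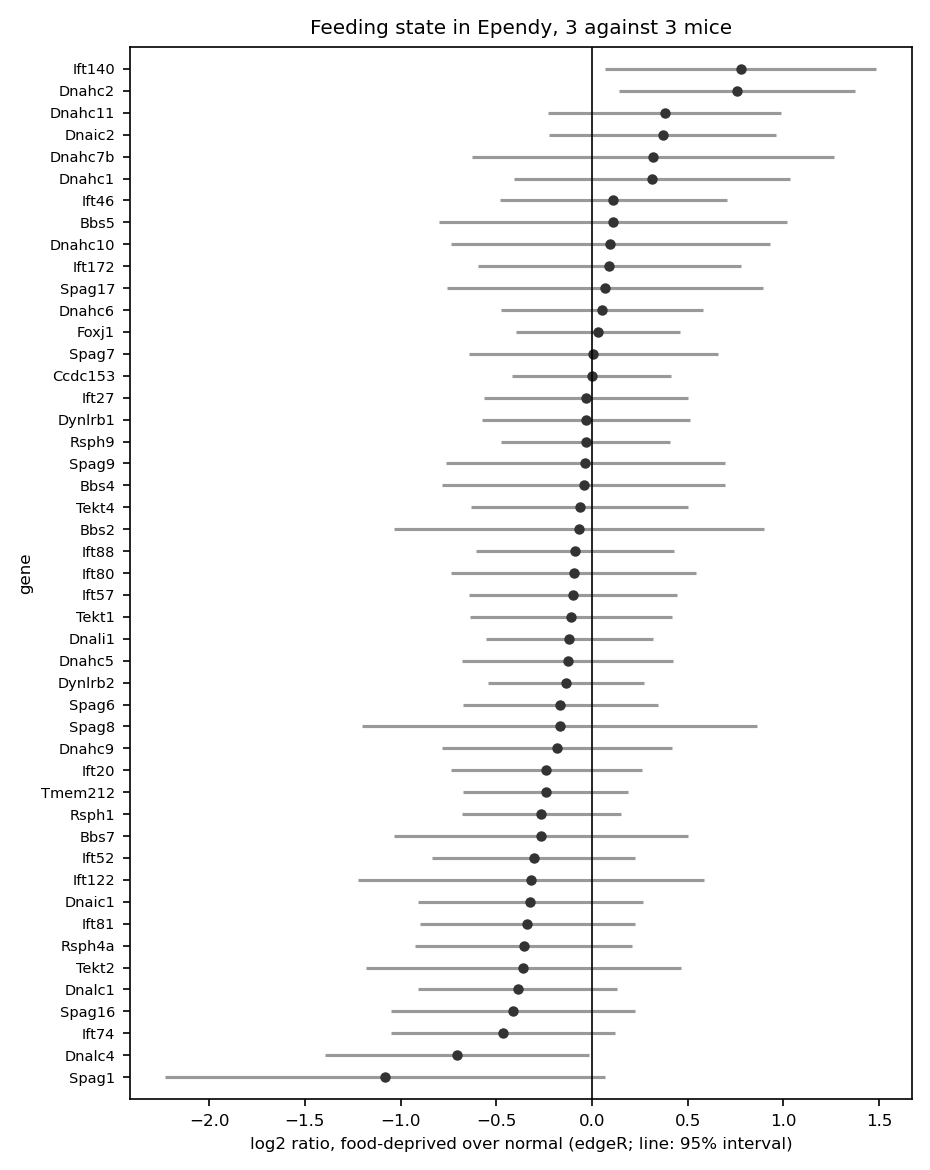
Log2 ratio of food-deprived over normal mice in Ependy (horizontal axis) with its 95% interval for the 47 members tested (vertical axis, sorted by ratio; edgeR, 3 against 3 mice). Intervals of Dnahc2, Ift140 and Dnalc4 exclude 0 before adjustment for multiple tests and all others include it.

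In Tany the smallest p belonged to Spag7, with 165, 147 and 154 TMM-scaled CPM in food-deprived and 113, 135 and 69.4 CPM in normal mice, which did not overlap (log2 ratio 0.60 ± 0.26, edgeR adjusted p = 0.999). Bbs2 (0.67), Dnahc6 (-0.75), Rsph1 (-0.41) and Ift81 (-0.43) followed by p. All food-deprived mice were above all normal mice for 2 of 35 members (Bbs2 and Spag7; 4.09% of all genes) and below for 2 (Ift140 and Rsph4a; 4.43%). In Astro, Bbs4 had 29.4, 29.0 and 53.8 CPM against 74.5, 38.1 and 107 CPM, groups that overlapped (log2 ratio -1.01 ± 0.43, edgeR adjusted p = 0.999). Ift20 (-0.55), Ift57 (0.47), Foxj1 (-0.54) and Bbs2 (-0.42) came next there, and the groups overlapped for all 17 members (3.85% and 4.33% of all genes lay apart, above and below). The 5 members with the smallest p in neurons were Tekt2 (-0.70), Foxj1 (-0.73), Rsph3b (-0.72), Bbs7 (-0.37) and Spag1 (-0.58). Foxj1 in neurons, at 4.71 to 6.28 CPM in food-deprived and 6.64 to 14.9 CPM in normal mice, was the only 1 of 38 whose groups did not overlap (below, 1.82% of all genes; above, 2.19%).

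The difference between the feeding effects in Ependy and in Tany was tested with the mouse as a block. It passed for 0 of 49 members and 2 of 7088 genes (0.0282%), with 1 member under an unadjusted p of 0.05 (5.12% of all genes) and none by DESeq2. That member was Ift140, with a difference of 1.21 ± 0.55 on the log2 scale (edgeR adjusted p = 0.936).

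The share of Ependy cells among the annotated cells was 1.76%, 1.47% and 7.70% in food-deprived replicates 1 to 3 and 10.1%, 6.33%, 1.33%, 2.52% and 5.68% in normal replicates 1 to 5, so the groups overlapped widely. The means were 3.64% and 5.19% (exact permutation test, two-sided, p = 0.679), a difference of -1.54 points. Without food-deprived replicate 3 the means were 1.61% and 5.19% and the difference -3.57 points (exact permutation test, p = 0.286), and without normal replicate 1 it was -0.32 points. In batch 1 the share was 1.76% in the food-deprived and 1.33% in the normal mouse, and in batch 2 1.47% and 2.52%.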

How the data were processed

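Drop-seq libraries of 8 mice (17 libraries) were measured. The authors deposited raw UMI counts by gene and barcode, not normalized per the file headers, and a cluster name for each annotated cell. The submitters' processing notes give the build mm9, and the aligner is not given in the sources used here. The counts of the 14276 cells used equalled those of the merged table. The deposited names were kept, no doublet caller was run, and neurons are the GABA, Glu and Hista clusters together. Sums over the cells of a class in a mouse (at least 20 cells) were tested with edgeR 4.0.16 (TMM, filterByExpr, quasi-likelihood, 0.05 after Benjamini-Hochberg) in R 4.3.3, with DESeq2 1.42.0 as an alternative, and the edgeR script was tested on simulated data. Whether separate mice of a group came from separate litters is not given, so p-values measure the spread between these mice.

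The labels put normal replicate 3 with food-deprived replicate 1 and normal replicate 4 with food-deprived replicate 2 in shared batches, which pairs them. Their deviations from the group means in Ependy correlated at 0.333 and 0.116 over 5336 genes.

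Named with full values were Foxj1, Ccdc153, Tmem212, Dynlrb1, Dynlrb2, the 20 members highest in Ependy, the 5 with the smallest p per feeding test and those higher in neurons than in Ependy (10). The members, gene lists and marker lists were chosen with earlier results of these data known.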

Additional observations from a re-analysis of the deposited data

Results flagged for a closer look

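Barcodes that were given no cluster name here number 4024 and were used in no comparison above. They include the barcodes of the 161 annotated cells that could not be placed in a library. Together they held Ccdc153 at 110 CPM (270 UMIs). This is more than a count of 0 would allow in these barcodes. Of them, 26 reached the 5 UMIs of Ccdc153 and Tmem212 together that mark the 5th percentile of Ependy cells, and the median of these 26 was 690.5 UMIs, below the Ependy median of 2364. Among named cells the same limit was reached by 392 Ependy, 10 Tany, 7 zothers, 3 SCO, 1 MO and 1 neuronal cell. The gap of a single mouse to its neighbours was checked among the normal mice for 8 measures, the share of Ependy cells, Foxj1 in MO and the levels of Dynlrb1, Bbs4, Spag7, Spag9, Tekt1 and Rsph9 in neurons, and no mouse passed the limit.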

How the results depend on the processing

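No member passed the threshold in any of the 50 alternative fits of the feeding effect or of its difference between classes (DESeq2, no filter on low counts, batch as a replicate block, at least 10 cells, libraries of low Gapdh alone, each mouse left out). The smallest adjusted p of a member in them was 0.635. Over all genes, leaving out the filter gave 21 calls in Ependy, 14 in Tany and 18 in Astro where 0 had passed. The replicate block gave 7 in Tany and 8 in neurons, the low-Gapdh libraries with the block 8 in Astro and 14 in neurons, and leaving out food-deprived replicate 2 gave 1 in Tany. The block changed no call of a member, but its feeding effect rests on the mice of batches 1 and 2 alone. For the difference between Ependy and Tany, DESeq2 gave 0 and no filter 13 genes where 2 had passed, and leaving out single mice 1 to 9.

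Near-zero ratios in Ependy changed sign. Foxj1 ranged from -0.074 to 0.13 with single mice left out, Ccdc153 from -0.054 to 0.029 and Dynlrb1 from -0.21 to 0.10. Ccdc153 was 0.0023 with DESeq2, 0.00062 with the replicate block and 0.084 with at least 10 cells per mouse, the setting that also gave 0.054 for Dynlrb2 and 0.025 for Dynlrb1. The cause was not tested.

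The count of members 4-fold higher than in Tany became 35 at a 2-fold limit, for which no share of all genes is given. Leaving out single mice gave 17 to 19 against Tany, 34 to 38 against Astro and 29 to 30 against neurons. The difference of the summed ependymal level, -1203 CPM over all members, was -1855 with TMM scaling over the 47 members tested only. In cells thinned to 1000 UMIs it was -282 over all members. The cause was not tested. The difference in the share of Ependy cells, -1.54 points, ran from -3.57 to -0.32 with single mice left out and was -0.31 with the replicate block of batches 1 and 2.

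The low-Gapdh libraries alone could not be used for Ependy and Tany, where normal replicate 4 fell under 20 cells, and the 10-cell limit added no mouse in Astro. Depth limits the weakest members: 8 had fewer than 3 UMIs in Ependy, and 16 of 63 were not testable for feeding there. Only 2 batches hold both feeding states.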
